A study of Mus musculus with 16 samples.

Results

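The genes described here encode the SR proteins and the heterogeneous nuclear ribonucleoproteins (hnRNPs), the general RNA-binding regulators of splicing, and their levels were measured in mouse heart ventricle with and without Rbpms in heart muscle cells. Members are the rows whose symbol begins with Srsf or Hnrnp followed by a letter or digit, without 2 pseudogene rows marked -ps. The rule finds 31 genes of 54108 rows that name a gene, 11 Srsf and 20 Hnrnp, and 30 of them (10 Srsf and 20 Hnrnp) reached a CPM (a gene's counts scaled to the total of the library) of 1 in at least 4 libraries. Srsf12 did not, with 11 counts over all 8 libraries, at most 0.189 CPM in any of them and 0 in 4, where a count of 0 allows up to 3 counts (0.122 to 0.149 CPM over the sizes of the 8 libraries). The least abundant members that passed, Srsf4 and Srsf9, had 12.0 to 15.5 and 14.5 to 19.8 CPM on that scale of total counts. Controls were Rbpms fl/fl mice without Cre (the control), and knockouts carried Myh6-Cre on the same Rbpms fl/fl background (cKO), all 8 weeks old, with 4 libraries a genotype. In each genotype 3 libraries came from males, and replicate 3 was the female one. The Myh6 promoter drives Cre in cardiomyocytes, so the other cells of the ventricle keep Rbpms. Since no control carries Cre, loss of Rbpms and presence of Cre cannot be told apart. The series also holds 8 newborn libraries, which were not analysed here.

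SR proteins carry RNA recognition motifs and a tail rich in arginine and serine. They bind exonic enhancers and recruit the spliceosome. hnRNPs coat nascent RNA, and many of them silence exons or block splice sites, so that the ratio of both classes sets the inclusion of many alternative exons. Many genes of both families also hold poison exons, whose inclusion brings a premature stop and sends the transcript to nonsense-mediated decay (NMD), a loop through which the proteins limit their own amount. Loss of Srsf1, Srsf2 or Hnrnpu in mouse heart muscle is known to cause cardiomyopathy.

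Libraries held 20190334 to 24540433 counts, and members had 254 to 14631 counts in a library. Pooling of animals is not stated, and p-values rest on the spread between libraries alone, which may be technical in part. Rbpms, the targeted gene, measured 101.6 to 193 CPM in controls and 26.9 to 38.8 in cKO (log2 fold change -2.33), and no library went against its label. Cardiomyocyte markers summed to 49091 to 64027 CPM in controls and 42410 to 50752 in cKO, and 2 of 10 fell. Fibroblast markers all rose (10 of 10), from 2637 to 3557 CPM in sum to 5563 to 6562, 2 of 10 macrophage and leukocyte markers rose (summed 191 to 308 and 307 to 348 CPM), and no marker list of the other 4 had more than 1 gene called in a direction. Atrial markers, 1 of those 4 lists, summed to 102 to 287 CPM in controls and 545 to 668 in cKO. The gene called there was Nppa, with mean CPM of 60.9 in controls and 436 in cKO (log2 fold change 2.84). No marker was at 0 in all libraries. Their part in the values below was not tested, and in whole ventricle fewer cells of a type and less RNA per cell cannot be told apart.

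None of the 30 SR and hnRNP genes was called higher or lower in cKO ventricles (adjusted p under 0.05), in a data set in which 19.3% of the 16051 genes tested were. The test was edgeR's quasi-likelihood test with Benjamini-Hochberg adjustment over all genes tested, which called 1548 genes higher (9.64%) and 1547 lower (9.64%). Scaled by total counts alone, 66.1% of called genes were higher, against 50% here, and 26 of the 30 members had a log2 fold change above 0 (18 here). At an unadjusted p under 0.05 there were 3 members, Hnrnpr, Hnrnpa0 and Hnrnpab, 31.5% of all genes and 37.2% of the genes in the members' range of CPM. DESeq2 called 1 member, Hnrnpr (22% of all genes called), and limma-voom called 0 (19.1%). That range, set by the lowest and highest mean CPM of a member, holds 8110 genes, of which 24% were called, 9.68% higher and 14.3% lower.

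Differences between the genotypes were small throughout. Log2 fold changes (cKO over control, scaled by TMM, the trimmed mean of M-values) ran from -0.19 in Hnrnpab to 0.24 in Srsf10. Their median was 0.03, against 0.01 over all genes tested and -0.03 over those in the members' CPM range. The median of their absolute values was 0.07, against 0.21 over all genes tested and 0.16 over those in the members' CPM range. The Srsf genes had a median of 0.08, with 7 higher and 3 lower, and the Hnrnp genes 0.02, with 11 higher and 9 lower. The 95% interval of the fold change lay within 1.5-fold in either direction for 30 of 30 members, for 51.4% of all genes tested and for 78.3% of genes in the CPM range. It lay within 1.2-fold for 12 members (1 Srsf and 11 Hnrnp), for 10.3% of all genes and 19.8% of those in the CPM range. The widest bounds were 0.54 for Srsf10 and -0.38 for Srsf3 on the log2 scale, and for 18 members the interval reached beyond 1.2-fold. CPM values of the groups did not overlap for 3 members, 23.5% of all genes tested and 28.4% of those in the CPM range.

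**Figure D1:**
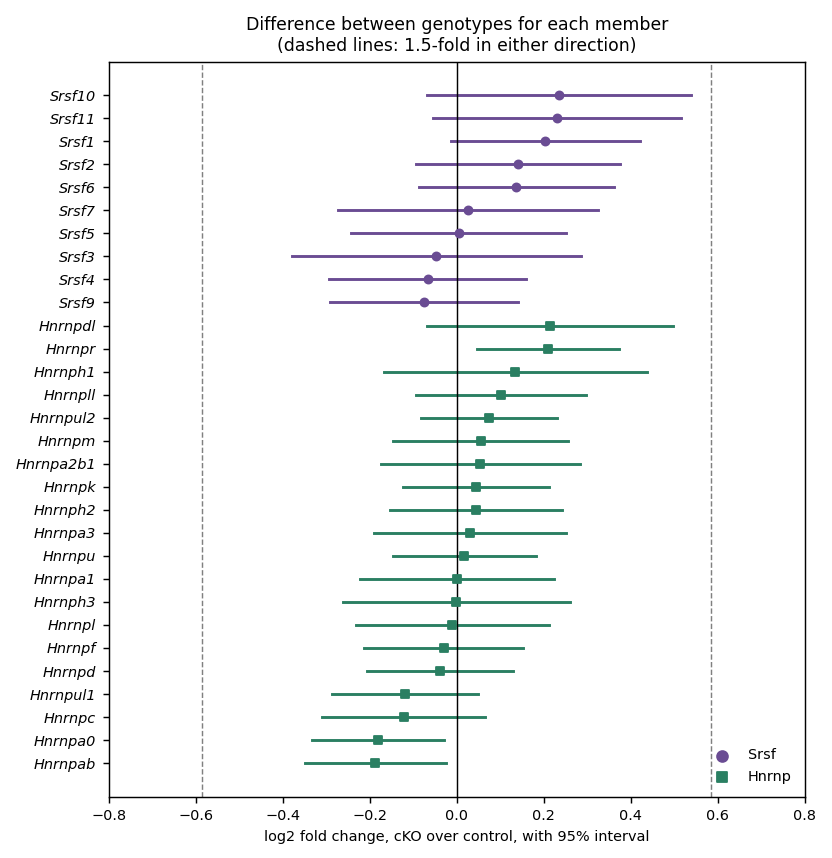
Log2 fold change of each of the 30 members (x axis, cKO over control, points) with its 95% interval (lines), members on the y axis by family; the dashed lines mark 1.5-fold in either direction. All 30 intervals lie between the dashed lines, and those of Hnrnpr, Hnrnpa0 and Hnrnpab do not cover 0.

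Levels of the members spanned a wide range. Divided by the length of all annotated exons, Hnrnpa2b1 was the most abundant in controls (79.9 CPM per kilobase, 66.1 to 93.6 over the 4 libraries), followed by Srsf5 (70.3, 56.7 to 86.7), and these overlapped. The next, Hnrnpk (42.4, 39.7 to 46.4), lay below both without overlap. From Hnrnpk down to Srsf1 (26.9) the means of 15 genes followed each other closely, and all ranges of neighbours in the order overlapped. Srsf4 (3.92, 3.55 to 4.43), Hnrnpr (3.66, 3.36 to 3.96) and Hnrnpll (3.64, 3.25 to 3.86) were the lowest and overlapped one another, apart from the next, Srsf10 (10.1, 7.16 to 12.7). Exon lengths include rare transcripts (22199 bases for Hnrnpr), which lowers such values.

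**Figure D2:**
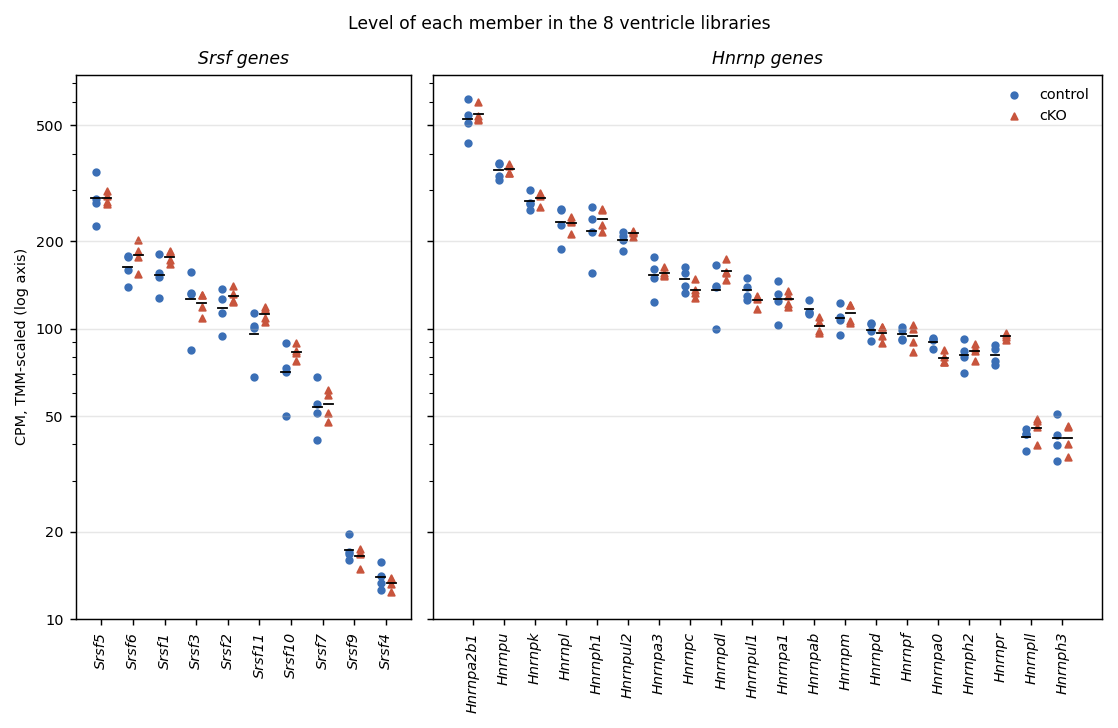
TMM-scaled CPM on a log axis (y) of each member (x, ordered by control mean) in the 4 control libraries (circles) and 4 cKO libraries (triangles), with group means as black lines. Members run from 13.9 CPM in controls (Srsf4) to 526 (Hnrnpa2b1), and the groups are apart for Hnrnpr, Hnrnpa0 and Hnrnpab.

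A feature that the rule did not use is the number of annotated decay transcripts. In GENCODE M21, 19 of the 30 members (63.3%) have a transcript annotated as subject to NMD, 9 of 10 Srsf and 10 of 20 Hnrnp genes, against 27.8% of 13536 protein-coding genes tested and 30.6% of the 7935 of these in the members' CPM range. Members also have more annotated transcripts (median 7.5, against 5 and 6). For 10 members, 5 in each family, an NMD transcript has an internal exon that overlaps no exon of a protein-coding transcript. Counting overlapping versions in Srsf4 and Hnrnpd separately, there are 16 such exons, of 51 to 460 bases. The longest were in Srsf7 (460 bases, chromosome 17, 80204622 to 80205081) and Srsf3 (456 bases, chromosome 17, 29039454 to 29039909). Gene counts do not tell a transcript with such an exon from one without it, and exon use was not analysed here, so equal counts do not show equal amounts of productive mRNA.

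Among the Srsf genes the 3 with the largest differences were Srsf10, Srsf11 and Srsf1, all higher in mean and none called. Positions here and below are those of GENCODE M21 on GRCm38, CPM values are TMM-scaled, and values after ± are the SD over 4 libraries unless marked SE. Srsf10 (chromosome 4, 135855747 to 135869908, plus strand) encodes an SR protein that represses splicing when it loses its phosphates. It measured 70.6, 72.9, 89.1 and 50.2 CPM in control replicates 1 to 4 and 82.3, 77.4, 84.04 and 89.4 CPM in cKO replicates 1 to 4. Control replicate 4 was the lowest and control replicate 3 lay with the highest cKO libraries, so the groups overlapped (log2 fold change 0.24 ± 0.14 SE, adjusted p = 0.28). Srsf11 (chromosome 3, 158010473 to 158036639, minus strand), an SR-related protein that contacts the U2AF splice site factor, measured 100.2, 102, 113 and 68.2 CPM in control replicates 1 to 4 and 117, 105, 119 and 108 CPM in cKO replicates 1 to 4. Again control replicate 4 lay far below the rest, controls 1 and 2 lay just under the cKO values, and control replicate 3 lay among them (log2 fold change 0.23 ± 0.13 SE, adjusted p = 0.257). Without control replicate 4 the log2 fold changes were 0.10 for Srsf10 (adjusted p = 0.546) and 0.10 for Srsf11 (adjusted p = 0.476). Without control replicate 3 they were 0.37 for Srsf10 (adjusted p = 0.0564) and 0.32 for Srsf11 (adjusted p = 0.107).

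Srsf1 (chromosome 11, 88047373 to 88053755, plus strand) is the founding SR protein, an activator of exons that is also known to act in mRNA decay and translation. It measured 149.9, 155, 181 and 128 CPM in control replicates 1 to 4 and 172, 167, 183 and 184 CPM in cKO replicates 1 to 4. Each cKO library exceeded 3 of the controls, and control replicate 3 lay among the cKO values (log2 fold change 0.20 ± 0.10 SE, adjusted p = 0.186). Its relative Srsf9 had a low level, 17.4 ± 1.57 CPM in controls and 16.5 ± 1.11 in cKO (log2 fold change -0.07). Without control replicate 3 Srsf1 passed the threshold (log2 fold change 0.29, adjusted p = 0.0377), and without control replicate 4 its value was 0.12 (adjusted p = 0.382).

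The Srsf genes of highest level per length were Srsf5, Srsf2 and Srsf6. Srsf5 (chromosome 12, 80945504 to 80950507, plus strand), which with Srsf4 and Srsf6 forms the group of longer SR proteins with a pair of RNA recognition motifs, measured 279.6, 269.8, 346 and 226 CPM in control replicates 1 to 4 and 269, 272, 298 and 286 CPM in cKO replicates 1 to 4. All cKO values fell inside the wide control range (log2 fold change 0.00 ± 0.11 SE, adjusted p = 0.985). Srsf6 (chromosome 2, 162931528 to 162937121, plus strand) measured 178, 159, 176 and 139 CPM in control replicates 1 to 4 and 176, 154, 201 and 185 CPM in cKO replicates 1 to 4. The cKO libraries alone spread over most of the range of both groups (log2 fold change 0.14 ± 0.10 SE, adjusted p = 0.406). Srsf4, the third of that group, had 13.9 ± 1.36 CPM in controls and 13.3 ± 0.635 in cKO (log2 fold change -0.07).

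Srsf2 (chromosome 11, 116849901 to 116853094, minus strand) measured 126, 113, 137 and 94.6 CPM in control replicates 1 to 4 and 124, 123, 140.3 and 132 CPM in cKO replicates 1 to 4. The controls spanned more than the cKO libraries and overlapped them (log2 fold change 0.14 ± 0.11 SE, adjusted p = 0.409). Without control replicate 4 the log2 fold changes were 0.05 for Srsf2 (adjusted p = 0.775) and 0.06 for Srsf6 (adjusted p = 0.717). Without control replicate 3 they were 0.22 for Srsf2 (adjusted p = 0.163) and 0.17 for Srsf6 (adjusted p = 0.311). Srsf3 and Srsf7, short SR proteins that also serve as adapters of mRNA export, lie on chromosome 17. Srsf3 had 126 ± 30.2 CPM in controls and 122 ± 10.4 in cKO (log2 fold change -0.05), with 84.4 CPM in control replicate 4 and 131.8 to 156 in the other controls. Its log2 fold change was -0.20 without that control (adjusted p = 0.183) and 0.07 without control replicate 3 (adjusted p = 0.784). Srsf7 had 53.8 ± 11.01 CPM in controls and 54.8 ± 6.44 in cKO (log2 fold change 0.03).

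The hnRNPs of the A/B and D group bind exonic silencers and AU-rich elements. Hnrnpab (chromosome 11, 51600100 to 51606847, minus strand) measured 112, 126, 114 and 114 CPM in control replicates 1 to 4 and 97.9, 96.6, 105 and 109 CPM in cKO replicates 1 to 4. All 4 cKO libraries lay below all 4 controls (log2 fold change -0.19 ± 0.07 SE, adjusted p = 0.105). Hnrnpa0 (chromosome 13, 58125879 to 58128556, minus strand), a gene with 1 annotated transcript, measured 92.6, 84.8, 91.7 and 91.2 CPM in control replicates 1 to 4 and 76.9, 76.9, 79.8 and 84.4 CPM in cKO replicates 1 to 4. Here too every cKO library was below every control, by little in the case of cKO replicate 4 (log2 fold change -0.18 ± 0.07 SE, adjusted p = 0.0939). Hnrnpa0 is outside the genes given in full by rule and was added after its values were seen.

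Hnrnpr (chromosome 4, 136310942 to 136359447, plus strand), a relative of Syncrip that binds mRNA in nucleus and cytoplasm, was the member with the smallest adjusted p and lay apart in the other direction. It measured 77.6, 85.00, 87.9 and 74.7 CPM in control replicates 1 to 4 and 91.2, 93.3, 94.9 and 96.8 CPM in cKO replicates 1 to 4. Every cKO library exceeded every control, and the cKO values lay closer together than the controls (log2 fold change 0.21 ± 0.07 SE, adjusted p = 0.0724). Hnrnpr passed with DESeq2 (adjusted p = 0.0477), with upper-quartile scaling (0.0466), with total counts only (0.0392) and without control replicate 3 (0.0416). Its adjusted p was 0.146 without control replicate 4 and 0.218 with no filter on low counts, the highest of its alternatives. Over its alternatives the log2 fold change of Hnrnpr was 0.17 to 0.29, that of Hnrnpa0 -0.21 to -0.10 and that of Hnrnpab -0.22 to -0.10.

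The promoter windows of these 3 genes are shown because their groups did not overlap, a choice made after the values were seen. They are RefSeq's in GRCm38.p6, 250 bases before to 50 after the start of the gene, 5′ to 3′ on the gene's strand, with CG dinucleotides in capitals. Hnrnpr lies at chr4:136310692-136310991 on the plus strand (1 of 2 windows listed), Hnrnpa0 at chr13:58128507-58128806 and Hnrnpab at chr11:51606832-51607131, both on the minus strand.
Hnrnpr: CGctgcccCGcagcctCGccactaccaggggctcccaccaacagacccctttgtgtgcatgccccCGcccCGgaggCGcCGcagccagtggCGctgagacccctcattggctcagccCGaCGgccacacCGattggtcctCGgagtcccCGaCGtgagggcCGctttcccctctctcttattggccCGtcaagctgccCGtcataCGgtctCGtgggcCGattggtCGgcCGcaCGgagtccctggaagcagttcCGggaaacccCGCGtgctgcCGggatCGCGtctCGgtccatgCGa
Hnrnpa0: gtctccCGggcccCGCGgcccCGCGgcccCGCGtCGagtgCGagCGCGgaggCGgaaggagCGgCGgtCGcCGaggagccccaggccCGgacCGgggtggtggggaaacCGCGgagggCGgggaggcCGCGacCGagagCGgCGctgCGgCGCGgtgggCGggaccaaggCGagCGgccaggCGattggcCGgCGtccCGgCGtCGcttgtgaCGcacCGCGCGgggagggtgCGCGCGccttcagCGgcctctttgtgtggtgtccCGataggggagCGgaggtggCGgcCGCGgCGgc
Hnrnpab: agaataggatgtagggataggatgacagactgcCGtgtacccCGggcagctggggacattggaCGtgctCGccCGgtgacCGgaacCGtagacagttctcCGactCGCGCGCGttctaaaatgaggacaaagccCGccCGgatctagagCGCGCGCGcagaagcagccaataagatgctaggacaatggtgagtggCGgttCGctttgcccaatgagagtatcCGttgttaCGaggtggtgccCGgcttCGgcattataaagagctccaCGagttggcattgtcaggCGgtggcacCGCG
They hold 31, 52 and 28 CG dinucleotides, which read the same on both strands, with a GC content of 68.7%, 79.7% and 58.3%. At least 1 CG is found in 94.6% of all 32851 windows of this length, whose median count is 7. CpG richness is shared by the members: for 28 of 28 with a window the observed over expected CpG ratio was at least 0.6 (median 1.02), against 68.0% of protein-coding genes tested and 76.7% of those in the members' CPM range. The ratio was 0.896 in the window of Hnrnpr, 1.136 in that of Hnrnpa0 and 1.12 in that of Hnrnpab.

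Hnrnpa2b1 (chromosome 6, 51460932 to 51469894, minus strand), the most abundant member, encodes a silencer-binding protein of the A/B group that also sorts RNA in the cytoplasm. It measured 509, 545, 616 and 435 CPM in control replicates 1 to 4 and 525, 521, 539 and 601 CPM in cKO replicates 1 to 4. The lowest and the highest of the 8 values were both controls (log2 fold change 0.05 ± 0.10 SE, adjusted p = 0.78). Hnrnpa1, the best studied antagonist of Srsf1, had 126 ± 18.00 CPM in controls and 126 ± 7.47 in cKO. Its log2 fold change was 0.00 with a 95% interval of -0.22 to 0.22. Hnrnpa3 had 153 ± 22.4 CPM in controls and 156 ± 5.03 in cKO (log2 fold change 0.03). In all 3 of these genes every cKO value lay inside the control range.

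Hnrnpdl and Hnrnpd are neighbours on chromosome 5, 54.6 kilobases apart, and both bind AU-rich RNA. Hnrnpdl (chromosome 5, 100033577 to 100039664, minus strand) measured 139, 141, 165 and 99.4 CPM in control replicates 1 to 4 and 156, 147, 173 and 156 CPM in cKO replicates 1 to 4. Control replicate 4 was far below the other 7 libraries, among which the groups overlapped (log2 fold change 0.21 ± 0.13 SE, adjusted p = 0.29). The log2 fold change of Hnrnpdl was 0.09 without control replicate 4 and 0.32 without control replicate 3 (adjusted p = 0.577 and 0.0855). Hnrnpd had 99.2 ± 6.30 CPM in controls and 96.6 ± 5.80 in cKO (log2 fold change -0.04).

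Hnrnph1, Hnrnph2, Hnrnph3 and Hnrnpf bind runs of G and share the same kind of RNA recognition motif. Hnrnph1 had 217 ± 45.8 CPM in controls and 239 ± 20.7 in cKO, with 155 CPM in control replicate 4 and 214.5 to 261 in the other controls. Its log2 fold change was 0.13 with all libraries, 0.00 without that control and 0.23 without control replicate 3 (adjusted p = 0.259). Hnrnph2, Hnrnph3 and Hnrnpf had log2 fold changes of 0.04, 0.00 and -0.03. Hnrnph2 lies on the X chromosome, and its values in the female libraries were 92.2 CPM (control) and 88.7 CPM (cKO), the highest of each genotype. This is not particular to Hnrnph2: the female control was the highest control for 21 of the 30 members, and the female cKO library for 14.

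Reads from paralogs can be split or shared where sequences are identical, so coding sequences of all 465 pairs of the 31 members were compared. Only 2 pairs held an identical run of at least 30 bases, both with Hnrnph1 (chromosome 11, 50376990 to 50386528, plus strand). They are shown as the longest such runs between members, each in coding sequence, 5′ to 3′, in GENCODE M21 on GRCm38.
Hnrnph1 and Hnrnph3: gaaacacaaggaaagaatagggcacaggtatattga
Hnrnph1 and Hnrnph2: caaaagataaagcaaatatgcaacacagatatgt
The first run has 36 bases and spans 2 exons in each gene (chr11:50381571-50382545, plus strand, and chr10:63018217-63018786, minus strand). The second has 34 bases, spanning 2 exons of Hnrnph1 (chr11:50383294-50383692) and lying in 1 exon of Hnrnph2 (chrX:134605944-134605977, plus strand). Untranslated regions, processed pseudogenes and genes outside the members were not compared, so the runs set no bound on the reads that genes could share. Exons of another gene overlap those of 3 members on the same strand (Hnrnpa3, Hnrnpm and Hnrnpul2) and of 11 on the opposite strand, and the strand setting of the counting is not given in the sources used here. Those 11 are Srsf1, Srsf2, Srsf4, Hnrnpab, Hnrnpd, Hnrnpf, Hnrnph3, Hnrnpk, Hnrnpl, Hnrnpr and Hnrnpu. Counts of all the overlapped members are uncertain to that extent.

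Hnrnpk (chromosome 13, 58391142 to 58403343, minus strand), which binds C-rich RNA through KH domains, was the second Hnrnp gene per length. It measured 271, 269, 300.2 and 256 CPM in control replicates 1 to 4 and 285, 262, 293 and 291 CPM in cKO replicates 1 to 4. The cKO values lay inside the control range (log2 fold change 0.04 ± 0.08 SE, adjusted p = 0.747). Hnrnpl and Hnrnpll, which bind CA repeats, had 232 ± 32.5 CPM in controls and 231 ± 12.7 in cKO and 42.5 ± 3.12 CPM in controls and 45.6 ± 4.19 in cKO (log2 fold changes -0.01 and 0.10). Hnrnpc, a binder of U tracts that guards against inclusion of cryptic exons, had 148 ± 13.9 CPM in controls and 136 ± 8.63 in cKO (log2 fold change -0.12). Hnrnpm, a regulator of exons near GU-rich RNA, had 109 ± 11.4 CPM in controls and 113 ± 8.89 in cKO (log2 fold change 0.06).

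Hnrnpu, a nuclear scaffold protein that acts on chromatin as well as on splicing, was second by CPM, with 350.0 ± 24.01 CPM in controls and 354 ± 12.98 in cKO. Its log2 fold change was 0.02 with a 95% interval of -0.15 to 0.18, within 1.2-fold either way. Its relatives Hnrnpul1 and Hnrnpul2 had log2 fold changes of -0.12 and 0.07, and the interval of Hnrnpul2 (-0.08 to 0.23) was also within 1.2-fold.

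Within the controls, the members moved together from library to library. Control replicate 4 had the lowest of the 8 values for 22 of the 30 members (73.3%, 8 of 10 Srsf and 14 of 20 Hnrnp), and for 16.8% of all genes tested and 12.8% of those in the members' CPM range. Its median log2 ratio to the other 3 controls was -0.40 over Srsf genes and -0.19 over Hnrnp genes, against -0.01 over all genes tested. Exceptions included Hnrnpul1, highest of the 8 in control replicate 4 (149 CPM), and Hnrnpa0 and Hnrnpab, close to the other controls there. Control replicate 3, the female control, was the highest control for 21 members (70%, and 27.3% of all genes), and the female cKO library was the highest of its genotype for 14 (46.7%, and 28.8%). With 1 female a genotype, sex and animal cannot be told apart. Within cKO, replicate 2 was the lowest of its genotype for 19 members (63.3%, 8 of 10 Srsf and 11 of 20 Hnrnp), and for 25.1% of all genes tested. Its median log2 ratio to the other 3 cKO libraries was -0.11 over all members, against -0.01 over all genes tested. Of all libraries, control replicate 4 gave most counts to mitochondrially encoded genes (11.8%, and 8.03% to 10.05% in the others), and the part of this in its low values was not tested.

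**Figure D3:**
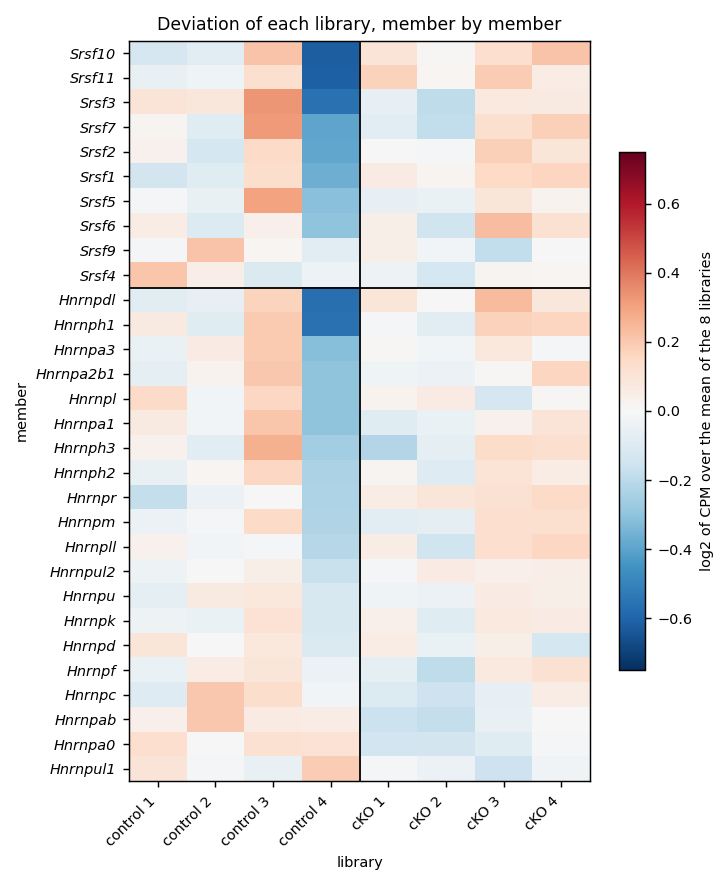
Colour gives the log2 ratio of each library's CPM to the mean of the 8 libraries, members in rows (Srsf above the line, Hnrnp below) and libraries in columns (controls left of the line). Control replicate 4 is blue for most members, down to Srsf10 and Srsf11, and control replicate 3 is mostly red.

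Leaving out control replicate 4 changed the balance but not the count of calls. Without it 10 members were higher and 20 lower (18 and 12 with it), the median log2 fold change was -0.04 in place of 0.03 (Srsf -0.02 and Hnrnp -0.04), and 0 members passed. Without control replicate 3 the balance moved the other way, with 22 members higher and 8 lower. The median was then 0.10 (Srsf 0.16 and Hnrnp 0.09), and 2 members passed, Hnrnpr and Srsf1. In males alone 22 members were higher and 8 lower, the median was 0.08, and 0 passed. Summed over the 10 Srsf genes, libraries held 1126, 1089, 1295 and 861 CPM (controls 1 to 4) and 1142, 1086, 1244 and 1207 CPM (cKO 1 to 4). The cKO mean was 1.07 times the control mean, and 1.0 times without control replicate 4. The 20 Hnrnp genes summed to 3258, 3322, 3597 and 2858 CPM in controls and 3242, 3181, 3385 and 3461 in cKO, ratios of 1.02 and 0.98. Both sums overlapped between genotypes.

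**Figure D4:**
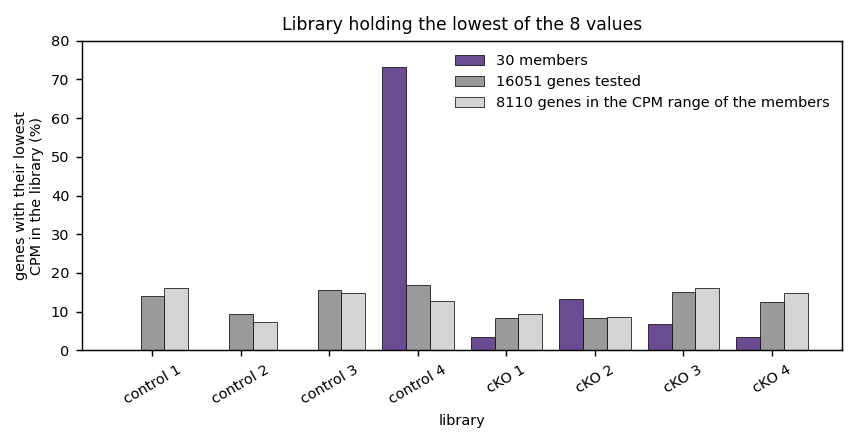
Percent of genes (y) whose lowest value of the 8 lay in each library (x), for the 30 members, all 16051 genes tested and the 8110 in the members' CPM range. Control replicate 4 held the lowest value for 73.3% of members and 16.8% of all genes.

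Other genes of the splicing pathway were taken from 5 lists and 142 genes, 141 of them tested, and 4 were called (1 higher and 3 lower), where 19.3% of all genes tested were. The balance of directions moved with the setting: scaled by total counts alone 5 were called, 4 higher and 1 lower, and without control replicate 3 there were 8, of which 5 were higher and 3 lower. Among 16 genes for SR kinases, phosphatases and nuclear import, 1 fell, Akt1, a kinase of growth signalling that also phosphorylates SR proteins (230 ± 12.1 to 146 ± 8.95 CPM, log2 fold change -0.66, adjusted p = 0.000176). After Akt1, the genes of smallest p in this list were the dedicated SR kinases Srpk1, Srpk3 and Clk4. Their log2 fold changes were -0.16, 0.20 and 0.33 (adjusted p = 0.134, 0.23 and 0.199), where the median of the list was 0.00. Clk4 passed in males alone (log2 fold change 0.49, adjusted p = 0.0358) and without control replicate 3 (0.52, adjusted p = 0.0199), and had 0.18 without control replicate 4 (adjusted p = 0.373). Among 31 SR-related proteins, Rnps1, which joins the exon junction complex, fell from 52.5 ± 1.11 to 42.0 ± 4.72 CPM (log2 fold change -0.32, adjusted p = 0.022), and missed the threshold with total counts only or without cKO replicate 1 or 4 (adjusted p = 0.0872, 0.0767 and 0.0637). U2surp, Sfswap and Rsrc1 had log2 fold changes of -0.28, 0.21 and 0.19 and were not called. U2surp passed with sex as a covariate (adjusted p = 0.0428) and without control replicate 4 (log2 fold change -0.36, adjusted p = 0.0206), and had -0.18 without control replicate 3 (adjusted p = 0.179).

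Of 33 hnRNPs and similar proteins under other symbols, 1 rose and 1 fell. Pcbp4, a poly(C)-binding KH protein, rose from 43.4 ± 6.97 to 60.4 ± 4.11 CPM (log2 fold change 0.48, adjusted p = 0.00877). Celf1, a regulator of developmental splicing in heart, fell from 194 ± 7.57 to 163 ± 4.50 CPM (log2 fold change -0.26, adjusted p = 0.0183) and missed the threshold with total counts only, in males alone and without cKO replicate 2 (adjusted p = 0.125, 0.081 and 0.0588). Pcbp2 and Igf2bp2 of that list had log2 fold changes of -0.20 and 0.46 and were not called. Pcbp2 passed with DESeq2 (adjusted p = 0.0431), and Igf2bp2 with sex as a covariate (0.047) and without control replicate 3 (0.0467). None of 44 core spliceosome genes (4 at an unadjusted p under 0.05) and none of 17 NMD and exon junction genes (1) passed in edgeR. DESeq2 called 7 of the 141. Dhx38, Sf1, Sf3a3 and Snrpa1 of the spliceosome had log2 fold changes of 0.24, -0.23, 0.22 and -0.27. Dhx34, Rbm8a, Magohb and Nbas of the decay list had -0.40, 0.18, -0.42 and -0.20. Of these, Dhx38 and Sf3a3 passed with total counts only (adjusted p = 0.0216 and 0.0474), Sf1 and Dhx34 with DESeq2 (0.0316 and 0.0472), Dhx38 without control replicate 1 (0.0327) and Dhx34 without control replicate 2 (0.0374). Control replicate 4 held the lowest value for 18 of the 31 SR-related genes, 13 of the 33 other hnRNPs, 8 of the 17 NMD and exon junction genes, 4 of the 16 genes for SR kinases, phosphatases and import and 6 of the 44 core spliceosome genes, and for 16.8% of all genes tested.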

How the data were processed

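The deposited table holds whole-number read counts per gene symbol, 1 column per 8-week library, which the authors made before deposit. Polyadenylated, stranded libraries were prepared, per the labels' protocols. HISAT2 2.0.4, edgeR 3.30.3, FastQC 0.11.4 and featureCounts 1.6.0 are listed without roles in the submitters' processing notes, as are GRCm38 and mm10. Annotation, strand setting and treatment of multiply aligned reads: not given in the sources used here. Of 54132 rows, 24 carry a number for a name (0.115% to 0.132% of counts) and were left out.

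Counts were fitted in edgeR 4.0.16 under R 4.3.3, after filterByExpr with its defaults and TMM scaling, on genotype alone. Dividing the size of the log2 fold change by the square root of F gave its SE, and 95% intervals use the test's degrees of freedom. Replicate libraries were compared and none were alike (chi-square per degree of freedom 7.79 to 34.8). Members and gene lists were chosen with earlier results of these data known. Values in every library are given for called members, and for the 3 of each family with the highest level per length and the 3 with the largest change. Up to 4 genes with the smallest adjusted p are named from each splicing list. Gene models are GENCODE M21 (97.7% of symbols matched 1 gene), and promoters are RefSeq's (28 of 30 members matched). The alternatives were 3 other scalings, 2 other filters, DESeq2 1.42.0, limma-voom (limma 3.58.1), sex as a covariate, males only, each library left out, a threshold of 0.01, and TMM-scaled CPM for membership. A fit without mitochondrially encoded genes was chosen after seeing the data. No label pairs libraries across genotypes.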

Additional observations from a re-analysis of the deposited data

Results flagged for a closer look

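Hnrnpab in control replicate 2 stood apart from the other libraries of its genotype, with 125.9 CPM where the other 3 controls had 112 to 114 CPM. It was 1 of 60 groups of 4 libraries examined, and chance alone sets about 1 in 20 such groups apart. Without control replicate 2 the log2 fold change of Hnrnpab was -0.15.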

How the results depend on the processing

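No Srsf member passed under any of the alternatives except without control replicate 3, where Srsf1 did, so the number of Srsf genes called ran from 0 to 1 over the libraries left out in turn. For Hnrnp genes it was 1 (Hnrnpr) with upper-quartile factors, 1 with total counts only, 1 with DESeq2, and 0 to 1 over the libraries left out. The genes called in the splicing lists (4) were 7 with DESeq2, 2 at an adjusted p under 0.01, and 3 to 8 over the libraries left out (8 without control replicate 3, 5 of them higher). Over all genes, 1625 were called at an adjusted p under 0.01, and every other alternative gave a count within 1.5 times the 3095 called. No gene named changed direction while called in either fit. Uncalled members often changed sign: 8 of 30 without control replicate 4, 8 with total counts only (26 higher and 4 lower), and 0 to 4 in the others. TMM-scaled CPM left 30 members. Members had at least 254 counts in each library, and the effect of depth on the calls was not tested.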
